A study of Mus musculus with 12 samples.

Results

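The 40 genes described here encode factors that build ribosomes, and they were chosen by symbol from an expression table of 24346 genes. All 40 were found, and all 40 passed the filter on low values (at least 0.5 FPKM in at least 3 of 12 libraries), as did 12379 genes in all. They comprise 4 subunits of RNA polymerase I, 6 nucleolar chaperones and regulators, 3 proteins of box C/D particles, 5 of box H/ACA particles, 14 factors of the small subunit and 8 of the large subunit. RNA was sequenced from NIH-3T3, a fibroblast line from NIH/Swiss mouse embryos, and from MLg, a fibroblast line from newborn lung of the ddY strain. The 4 groups, with 3 libraries each, were NIH-3T3 with SHHN, NIH-3T3 with vehicle (control), MLg with SHHN and MLg with vehicle (control). SHHN is the amino-terminal signalling fragment of Sonic hedgehog, given as recombinant protein at 1 µg/ml for 48 h. All 4 groups were treated at 85% confluence in DMEM with 0.5% FBS, after growth in medium with 10% serum, bovine calf serum for NIH-3T3 and FBS for MLg. Each line stands for 1 source of cells, and the labels do not say whether replicates were separate cultures, so p-values measure only the spread between these samples.

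Ribosomes are assembled in the nucleolus, where RNA polymerase I transcribes the ribosomal RNA precursor. Small nucleolar particles direct the methylation and pseudouridylation of this RNA, and assembly factors cut, fold and package it with ribosomal proteins into the small and the large subunit. Myc and its paralogue Mycn are transcription factors known to raise the expression of many of these genes, and Mycn is a known target of Hedgehog signalling in neural precursors. The question was whether the 40 genes followed Mycn, which responded to SHHN in NIH-3T3 and was near 0 in MLg.

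The authors deposited FPKM, a level per transcript length and per mapped fragments of a library. Depth was not known from these values, and FPKM totals were 470218 to 659862 per library. NIH-3T3 control replicate 2 stood apart, with the highest total, the fewest genes above 0 (13401, against 13957 to 14793 in the other libraries) and the highest share of FPKM in ribosomal protein genes (35.3%). Counts that move without it are given beside the results. Gli1, a transcription factor and target of the pathway, was at 151, 150 and 139 FPKM in NIH-3T3 with SHHN against 0.129, 0.0840 and 0.179 FPKM in NIH-3T3 control, and at 128, 118 and 113 FPKM in MLg with SHHN against 0.906, 0.428 and 0.414 FPKM in MLg control. All 10 fibroblast markers passed the filter, with summed levels of 10905 to 12602 FPKM in NIH-3T3 with SHHN, 16710 to 17951 FPKM in NIH-3T3 control, 8966 to 10305 FPKM in MLg with SHHN and 10056 to 11808 FPKM in MLg control. None of 6 epithelial markers passed it, and 1 of 4 leukocyte and 1 of 4 muscle markers did. Of 4 endothelial markers Cdh5 and Tek passed and Pecam1 and Kdr did not, and the list summed to 6.73 to 25.3 FPKM in NIH-3T3 with SHHN, 5.75 to 7.93 FPKM in NIH-3T3 control, 5.78 to 6.51 FPKM in MLg with SHHN and 0.101 to 0.154 FPKM in MLg control. The part of these shifts in the results below was not tested.

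Mycn was at 14.2, 16.3 and 15.8 FPKM in NIH-3T3 with SHHN, against 2.01, 1.72 and 1.62 FPKM in NIH-3T3 control. In MLg it was at 0, 0.0425 and 0.0172 FPKM with SHHN, against 0, 0.0228 and 0 FPKM in control. Mycn was thus high in the treated NIH-3T3 libraries, low in the untreated ones and at or near 0 in all 6 MLg libraries. On the scale used for all tests, log2(FPKM + 0.5), which understates the change of low genes, its difference was 2.80 in NIH-3T3 (SE 0.13) and 0.03 in MLg. The question was posed with this pattern known, so the Mycn values are given as a description. Myc was at 10.2, 7.90 and 8.35 FPKM in NIH-3T3 with SHHN against 11.3, 12.3 and 9.91 FPKM in control, and at 9.96, 9.98 and 9.32 FPKM in MLg with SHHN against 8.16, 11.6 and 9.15 FPKM in control. Its differences of -0.33 in NIH-3T3 (adjusted p = 0.102) and 0.03 in MLg (adjusted p = 0.911) did not pass the test, but after correction for transcript length and GC content Myc was lower in NIH-3T3 (-0.34, adjusted p = 0.0407, and 0.0339 with the replicate block). Of 12 genes of the Myc network, 3 rose and 2 fell in NIH-3T3 and 2 rose in MLg. Mxd3, a Max partner known to repress Myc target sites, was at 22.9, 25.2 and 27.3 FPKM in NIH-3T3 with SHHN against 0.987, 1.5 and 1.23 FPKM in control, and at 31.6, 30.6 and 35.1 FPKM in MLg with SHHN against 2.53, 7.19 and 6.03 FPKM in control. It rose in both lines, by 3.89 (adjusted p = 9.24e-08) and 2.62 (adjusted p = 5.95e-06). Mycl, another Myc paralogue, stayed at or below 2.84 FPKM in all libraries and rose by 0.78 in NIH-3T3 (adjusted p = 0.00389) and by 1.23 in MLg (adjusted p = 0.000142). At these low levels the NIH-3T3 value was 0.47 to 1.77 over the alternatives and the difference between lines -0.62 to 0.21, so the line with the higher rise turned with the settings.

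**Figure D1:**
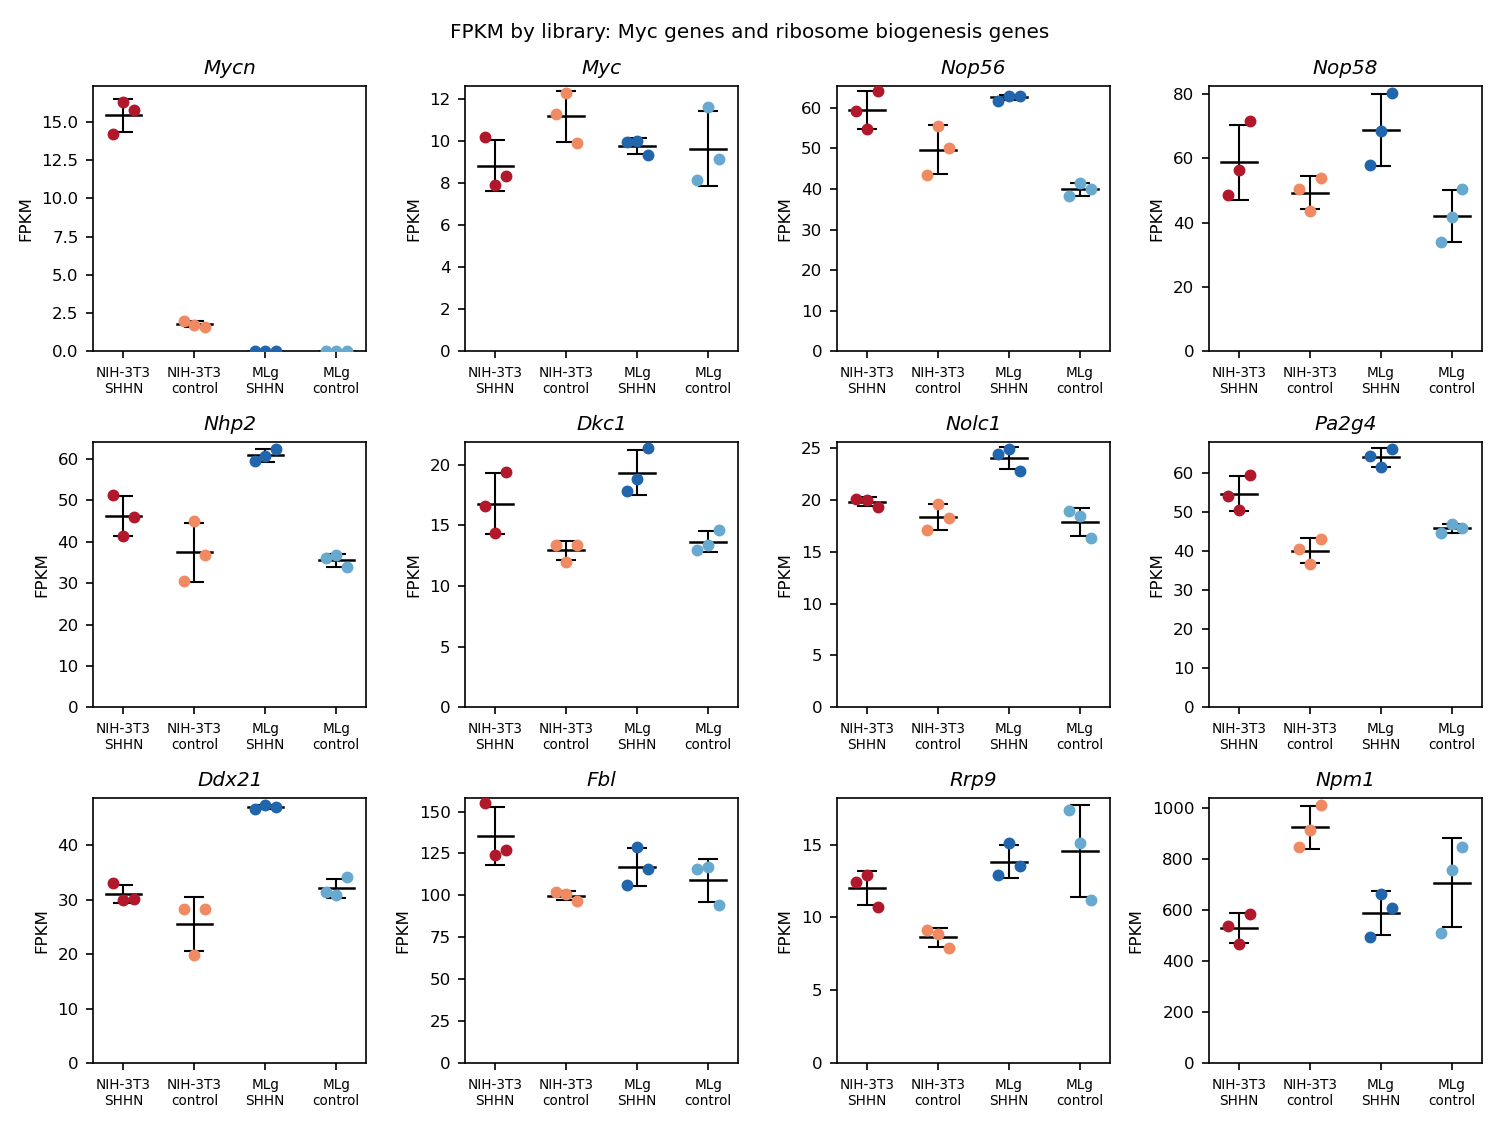
FPKM (y axis, linear, from 0) of Myc genes and ribosome biogenesis genes in the 4 groups (x axis). Each point is 1 library, and the bar and error show the mean and SD of 3 libraries. Mycn is high only in NIH-3T3 with SHHN (14.2 to 16.3 FPKM), while the levels of the ribosome biogenesis genes differ much less between groups.

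In NIH-3T3, where Mycn rose, 4 of the 40 genes rose (Pa2g4, Fbl, Rrp9 and Dkc1) and 1 fell (Npm1). That is 10.0% and 2.50% of the members, against 16.6% and 14.8% of all genes tested (31.4% in either direction, against 12.5% of the members). Their median difference was 0.08 and ranged from -0.81 to 0.47, with 24 positive and 16 negative, against a median of -0.01 over all genes. In MLg, where Mycn was near 0, 8 genes rose (Pa2g4, Dkc1, Ddx21, Nop56, Nop58, Nhp2, Nolc1 and Bysl) and 1 fell (Nob1), which is 20.0% and 2.50% of the members against 12.8% and 10.0% of all genes. In either direction it was 22.5% of the members against 22.8% of all genes. The median was 0.25 and the range -0.33 to 0.77, with 36 positive and 4 negative, against a median of 0.00 over all genes. Positive differences made up 60.0% of the members in NIH-3T3, against 48.8% of all genes. In MLg they made up 90.0%, against 49.5%. The members were not tested as a set. Pa2g4 and Dkc1 rose in both lines, and 28 genes passed the test in neither. In NIH-3T3 all treated libraries lay above all controls for 9 members and below them for 5. Over all 12379 genes tested this held for 2675 and 2323. In MLg it held for 17 and 1 members, against 2648 and 2475 genes. Groups without overlap were thus common, and a lack of overlap is given below only as a description. In these bulk samples fewer cells of a kind and less RNA per cell cannot be told apart. The count of 4 in NIH-3T3 was 1 without SHHN replicate 1, 2 without control replicate 3, 2 without MLg SHHN replicate 3 and 7 after correction for transcript length and GC content. The count of 8 in MLg was 5 without MLg SHHN replicate 3 and 15 after that correction, and with the replicate number as a block, which pairs the MLg libraries, it was 9. Without NIH-3T3 control replicate 2, the library that stood apart, 6 genes rose in NIH-3T3. Nop56, Nhp2 and Bop1 were added there and Dkc1 was lost. In MLg Utp20, Imp4 and Wdr12 passed as well without that library.

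**Figure D2:**
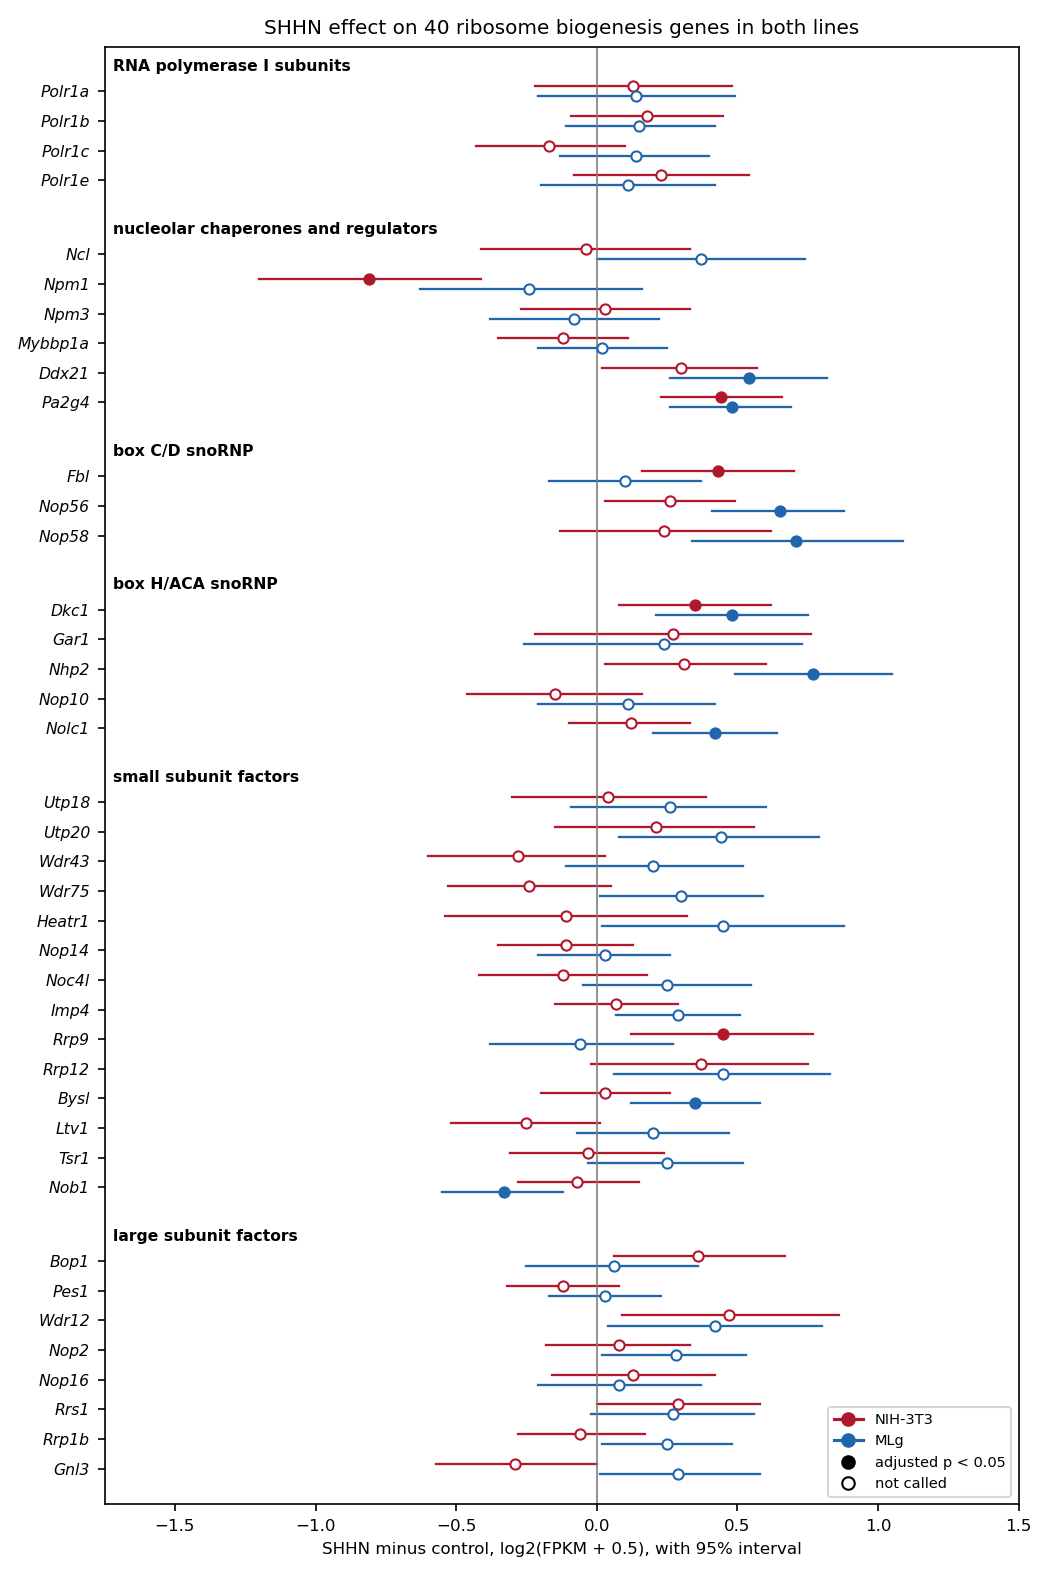
SHHN minus control on log2(FPKM + 0.5) (x axis) for the 40 genes by role (y axis) in NIH-3T3 and MLg. Points are estimates of the fit to all 12 libraries, lines are 95% intervals, and filled points passed an adjusted p of 0.05. In MLg 36 of 40 points lie above 0, in NIH-3T3 24 of 40.

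The RNA polymerase I genes passed the test in neither line. Polr1a and Polr1b encode the large catalytic subunits, Polr1c a subunit shared with RNA polymerase III and Polr1e an accessory subunit. Their differences were -0.17 to 0.23 in NIH-3T3 and 0.11 to 0.15 in MLg. Polr1e had the lowest levels of the 40 genes, between 1.25 and 2.19 FPKM over all 12 libraries.

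Among the nucleolar chaperones and regulators, 1 of 6 rose and 1 fell in NIH-3T3 (16.7% each, against 16.6% and 14.8% of all genes). In MLg 2 rose (33.3%, against 12.8% of all genes). Pa2g4, also called Ebp1, is a growth regulator that binds ribosomal particles. It was at 54.1, 50.5 and 59.4 FPKM in NIH-3T3 with SHHN against 40.4, 36.8 and 43.2 FPKM in control, and at 64.4, 61.4 and 66.2 FPKM in MLg with SHHN against 44.6, 46.8 and 46.0 FPKM in control. The treated libraries were above the controls in both lines without overlap. The rise was 0.44 (SE 0.10, limma, adjusted p = 0.00391) in NIH-3T3 and 0.48 (SE 0.10, adjusted p = 0.00291) in MLg, and the difference between lines was -0.04 (95% interval -0.34 to 0.27). Npm1, the abundant nucleolar histone chaperone nucleophosmin, was at 538, 466 and 585 FPKM in NIH-3T3 with SHHN against 847, 913 and 1012 FPKM in control, and at 496, 664 and 610 FPKM in MLg with SHHN against 512, 759 and 849 FPKM in control. All treated NIH-3T3 libraries were below the controls, whereas the MLg groups overlapped. Npm1 fell by 0.81 in NIH-3T3 (SE 0.18, adjusted p = 0.00430) and differed by -0.24 in MLg (adjusted p = 0.414). Its level is uncertain, since 40.6% of sampled 50-base windows of its transcript also occur in other genes. Ddx21, an RNA helicase of ribosomal RNA transcription and processing, was at 33.0, 30.0 and 30.2 FPKM in NIH-3T3 with SHHN against 28.3, 19.8 and 28.4 FPKM in control, and at 46.7, 47.3 and 47.0 FPKM in MLg with SHHN against 31.5, 30.8 and 34.1 FPKM in control. No treated library overlapped a control in either line, and the rise passed the test in MLg (0.54, adjusted p = 0.00741) but not in NIH-3T3 (0.30, adjusted p = 0.10). Under 2 of 24 alternatives the rise passed in NIH-3T3 too. Ncl (nucleolin), Npm3 (a relative of Npm1) and Mybbp1a (a nucleolar Myb-binding protein) passed it in neither line. Of sampled Npm3 windows, 35.3% occur in another gene.

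Box C/D particles methylate ribosomal RNA, with Fbl (fibrillarin) as the methyltransferase and Nop56 and Nop58 as the scaffold. Fbl was at 155, 124 and 127 FPKM in NIH-3T3 with SHHN against 102, 101 and 96.6 FPKM in control, and at 106, 129 and 116 FPKM in MLg with SHHN against 116, 117 and 94.1 FPKM in control. It was higher in every treated NIH-3T3 library and overlapped in MLg. It rose by 0.43 in NIH-3T3 (adjusted p = 0.0174, but 0.0792 without SHHN replicate 1 and 0.0548 without control replicate 3) and differed by 0.10 in MLg (adjusted p = 0.632). Nop56 was at 59.3, 54.8 and 64.1 FPKM in NIH-3T3 with SHHN against 43.5, 55.6 and 50.1 FPKM in control, and at 61.8, 63.0 and 63.0 FPKM in MLg with SHHN against 38.2, 41.6 and 39.9 FPKM in control. The NIH-3T3 groups overlapped by 1 library, and the MLg groups were far apart. Nop56 rose by 0.65 in MLg (SE 0.11, adjusted p = 0.000527), while its difference in NIH-3T3 was 0.26 (adjusted p = 0.0853). In NIH-3T3 it passed under 4 of 24 alternatives, with 0.34 without NIH-3T3 control replicate 2 (adjusted p = 0.0282). Of its sampled windows 18.1% occur in other genes. Nop58 was at 48.6, 56.4 and 71.5 FPKM in NIH-3T3 with SHHN against 50.4, 43.7 and 53.8 FPKM in control, and at 57.9, 68.6 and 80.2 FPKM in MLg with SHHN against 34, 41.8 and 50.4 FPKM in control. It rose by 0.71 in MLg (adjusted p = 0.00870, but 0.053 without MLg SHHN replicate 3), and the overlapping NIH-3T3 groups differed by 0.24 (adjusted p = 0.327).

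Box H/ACA particles convert uridines of ribosomal RNA to pseudouridine, with Dkc1 (dyskerin) as the catalytic subunit and Gar1, Nhp2 and Nop10 as partners. Dkc1 was at 16.6, 14.4 and 19.4 FPKM in NIH-3T3 with SHHN against 13.4, 12 and 13.4 FPKM in control, and at 17.8, 18.8 and 21.4 FPKM in MLg with SHHN against 13, 13.4 and 14.6 FPKM in control. Treated libraries lay above controls in both lines. The rise was 0.35 in NIH-3T3 (adjusted p = 0.0470) and 0.48 in MLg (adjusted p = 0.0124). The NIH-3T3 call was lost without any 1 of 11 libraries, with adjusted p up to 0.174 without SHHN replicate 3, and the MLg call without MLg SHHN replicate 3 (adjusted p = 0.0706). Nhp2 was at 51.3, 41.5 and 46.0 FPKM in NIH-3T3 with SHHN against 30.6, 45 and 36.7 FPKM in control, and at 59.5, 60.7 and 62.5 FPKM in MLg with SHHN against 36.0, 36.7 and 33.8 FPKM in control. It had the highest rise of the 40 genes in MLg, 0.77 (adjusted p = 0.000633), and a difference of 0.31 in NIH-3T3 that did not pass (adjusted p = 0.0858). Under 4 of 24 alternatives Nhp2 did pass in NIH-3T3. It rose there by 0.45 without NIH-3T3 control replicate 2 (adjusted p = 0.0103) and by 0.40 with the length and GC correction (adjusted p = 0.00253). Nolc1, a chaperone of these particles, was at 20.1, 20.0 and 19.3 FPKM in NIH-3T3 with SHHN against 17.1, 19.6 and 18.2 FPKM in control, and at 24.4, 24.9 and 22.8 FPKM in MLg with SHHN against 18.9, 18.4 and 16.3 FPKM in control. It rose by 0.42 in MLg (adjusted p = 0.00803) and differed by 0.12 in NIH-3T3 (adjusted p = 0.429). Gar1 and Nop10 passed the test in neither line.

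Of the 14 small subunit factors 1 rose in NIH-3T3 (7.14%, against 16.6% of all genes). In MLg 1 rose and 1 fell (7.14% each, against 12.8% and 10.0% of all genes). Rrp9, a protein of the U3 particle that processes the precursor, was at 12.4, 12.9 and 10.7 FPKM in NIH-3T3 with SHHN against 9.16, 8.89 and 7.91 FPKM in control, and at 12.9, 15.1 and 13.5 FPKM in MLg with SHHN against 17.4, 15.1 and 11.2 FPKM in control. The NIH-3T3 groups did not overlap and the MLg groups did. It rose by 0.45 in NIH-3T3 (adjusted p = 0.0385), a call lost under 12 of 24 alternatives with adjusted p up to 0.128, and differed by -0.06 in MLg (adjusted p = 0.845). Bysl, a factor of late small subunit assembly, was at 16.0, 15.2 and 15.3 FPKM in MLg with SHHN against 12.6, 12.5 and 11.1 FPKM in control and rose by 0.35 (adjusted p = 0.0287). Its call was lost under 7 of 24 alternatives, both other scalings included (adjusted p = 0.102 with quantile normalization). Nob1, the nuclease that trims the small subunit RNA, was at 16.4, 16.5 and 16.9 FPKM in MLg with SHHN against 22.3, 22.2 and 18.8 FPKM in control. It fell by 0.33 (adjusted p = 0.0280), a call lost without any 1 of 5 of the 6 MLg libraries, with adjusted p up to 0.109 without MLg control replicate 2. The other 11 genes passed in neither line: Utp18, Utp20, Wdr43, Wdr75, Heatr1, Nop14, Noc4l and Imp4 of the early processing complex, and Rrp12, Ltv1 and Tsr1 of later steps. With the replicate block Rrp12 rose in MLg (0.45, adjusted p = 0.0324, against 0.0932 without the block).

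None of the 8 large subunit factors passed the test in either line in the main fit. Under some of the 24 alternatives a few rose. In NIH-3T3 these were Wdr12 (under 6), Bop1 (3) and Rrs1 (1), and in MLg Wdr12 (3), Nop2 (2), Rrs1 (2) and Gnl3 (2). Bop1, Pes1 and Wdr12 form the PeBoW complex, Nop2 is an RNA methyltransferase, Rrs1, Nop16 and Rrp1b take part in large subunit assembly and Gnl3 (nucleostemin) is a nucleolar GTP-binding protein. Their median difference was 0.10 in NIH-3T3 (5 positive, 3 negative) and 0.26 in MLg (8 of 8 positive). Wdr12 was at 7.90, 8.16 and 9.95 FPKM in NIH-3T3 with SHHN against 7.13, 4.32 and 7.22 FPKM in control, and at 12.5, 10.1 and 11.7 FPKM in MLg with SHHN against 8.96, 7.56 and 8.67 FPKM in control. The groups did not overlap in either line, with differences of 0.47 (adjusted p = 0.0571) and 0.42 (adjusted p = 0.110). Bop1 was at 25.7, 24.6 and 23.4 FPKM in NIH-3T3 with SHHN against 20.0, 21.1 and 16.2 FPKM in control, and at 28.4, 28.1 and 24.8 FPKM in MLg with SHHN against 30.6, 27.3 and 21.1 FPKM in control. Its treated libraries were above the controls in NIH-3T3 only, with differences of 0.36 (adjusted p = 0.0659) and 0.06 (adjusted p = 0.829). Rrs1 was at 33.0, 32.4 and 29.9 FPKM in NIH-3T3 with SHHN against 23.6, 29.4 and 25.1 FPKM in control, and at 29.5, 38.5 and 37.6 FPKM in MLg with SHHN against 26.9, 33.6 and 26.7 FPKM in control. The NIH-3T3 groups did not overlap, and the differences were 0.29 (adjusted p = 0.126) and 0.27 (adjusted p = 0.184).

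Whether the 40 genes followed Mycn was examined by testing the difference between the 2 SHHN effects, NIH-3T3 minus MLg. Mycn was above the near-0 level in only 1 of the 2 lines, so this test compares the lines. A part of Mycn in it cannot be told apart from other differences between the lines. For Mycn the difference of effects was 2.77 (SE 0.18, 95% interval 2.37 to 3.16), a description as above. None of the 40 genes passed this test by limma in either direction, against 7.48% of all genes higher and 5.95% lower (13.4% in either direction), while with the replicate block Gnl3 (adjusted p = 0.0307) and Wdr75 (adjusted p = 0.0495) were lower. Without the block 8 of the 40 had an unadjusted p under 0.05, against 3445 of 12379 genes. Point estimates were lower in NIH-3T3 for 29 of the 40, with a median of -0.22 against -0.02 over all genes. The difference was positive for 27.5% of the members, against 47.7% of all genes. All 40 intervals lay below 1, and the highest upper bound was 0.96, for Rrp9 (0.50, 95% interval 0.04 to 0.96, adjusted p = 0.146). The interval lay wholly below 0 for 7 genes. Gnl3 was at 15.8, 14.4 and 17 FPKM in NIH-3T3 with SHHN against 19.7, 19.4 and 18.7 FPKM in control, and at 22.6, 28.3 and 29.3 FPKM in MLg with SHHN against 18.8, 21.4 and 24.9 FPKM in control. Its treated libraries were all below the controls in NIH-3T3 and overlapped them in MLg, and the difference was -0.58 (95% interval -0.98 to -0.18, adjusted p = 0.0549). Wdr75 was at 11.5, 13.5 and 14.8 FPKM in NIH-3T3 with SHHN against 15.1, 14.1 and 18.1 FPKM in control, and at 17.6, 20.3 and 20.4 FPKM in MLg with SHHN against 14.4, 14.9 and 17.8 FPKM in control, a difference of -0.55 (adjusted p = 0.0795). Ltv1 was at 12.9, 17 and 17.9 FPKM in NIH-3T3 with SHHN against 18.9, 19.8 and 18.2 FPKM in control, and at 17.7, 16.8 and 17.4 FPKM in MLg with SHHN against 14.1, 16.0 and 14.9 FPKM in control, a difference of -0.45 (adjusted p = 0.107). Neither pair of Ltv1 groups overlapped, in opposite directions. Nop56 differed by -0.39 (adjusted p = 0.113) and Nhp2 by -0.46 (adjusted p = 0.128). Under some alternatives members passed as lower in NIH-3T3: 7 with the length and GC correction, 2 without NIH-3T3 control replicate 1 (Nop56 and Nhp2), 3 without NIH-3T3 control replicate 2 (Ddx21, Wdr75 and Heatr1), 1 without MLg SHHN replicate 1 (Gnl3) and 2 without MLg control replicate 3 (Wdr75 and Gnl3). Without this last library Rrp9 passed as higher (adjusted p = 0.0285).

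**Figure D3:**
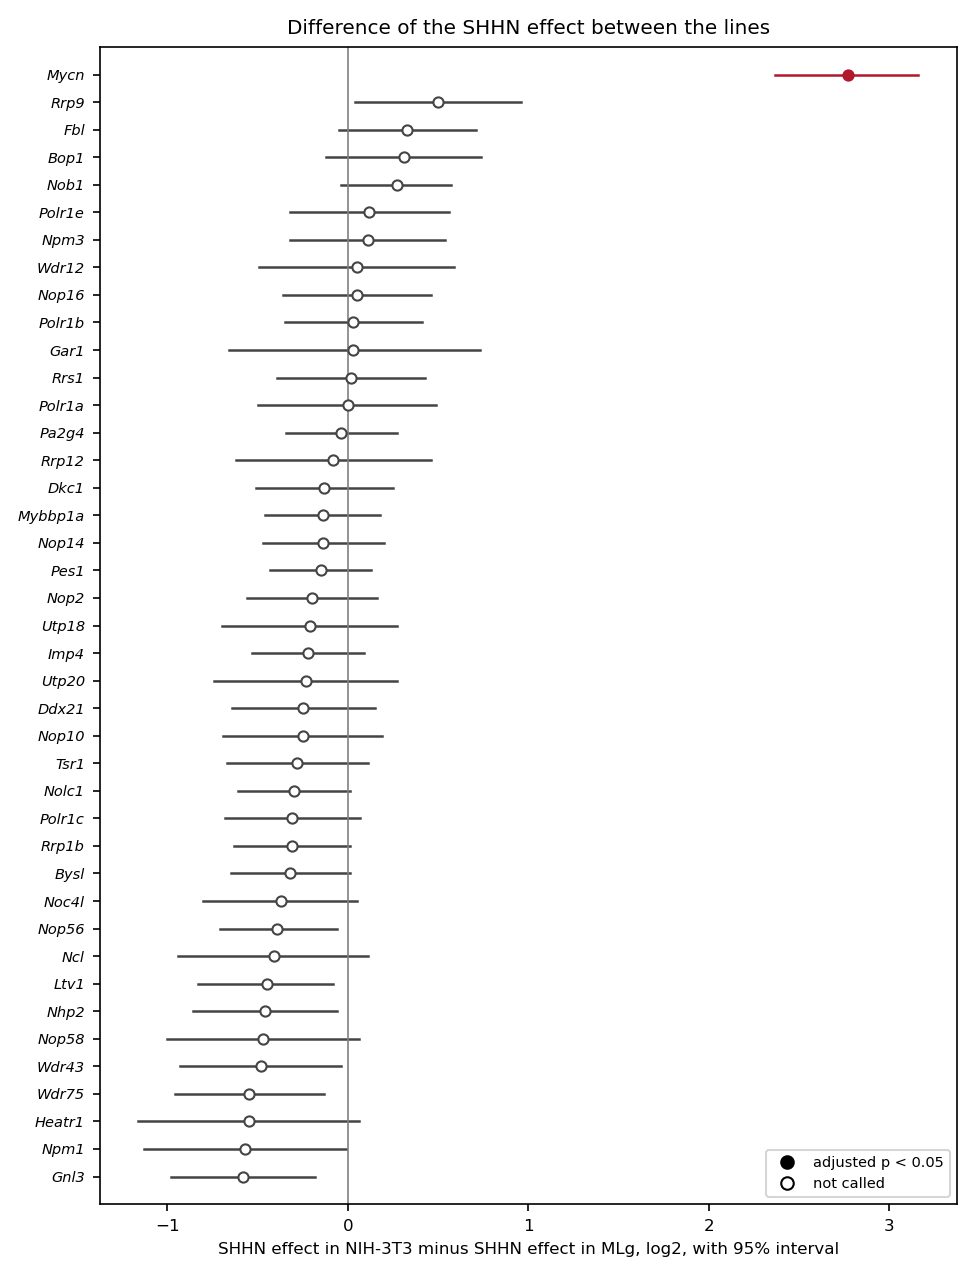
SHHN effect in NIH-3T3 minus SHHN effect in MLg (x axis, log2, with 95% intervals) for Mycn and the 40 genes (y axis), fitted to 12 libraries. Mycn is at 2.77, and the 40 genes lie between -0.58 and 0.50 with no filled point, that is none past an adjusted p of 0.05.

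Without SHHN, Mycn was higher in NIH-3T3 than in MLg by 2.17 on the log2 scale, a value that the pseudocount sets (1.46 to 4.13 over the alternatives), since MLg controls were at or near 0. Of the 40 genes 6 were higher and 4 lower in NIH-3T3 control than in MLg control, 15% and 10.0% against 24.4% and 25.7% of all genes (50.1% in either direction), with a median of 0.00. All NIH-3T3 controls lay above all MLg controls for 4 members and below them for 7, against 3124 and 3345 of 12379 genes. Noc4l was at 13.1, 15.1 and 12.5 FPKM in NIH-3T3 control against 9.91, 9.72 and 7.19 FPKM in MLg control, higher by 0.59 (adjusted p = 0.00332) and without overlap. With SHHN it was at 12.8, 12.3 and 12.1 FPKM in NIH-3T3 and 12.2, 10.3 and 9.58 FPKM in MLg. The controls of Rrp9 (-0.70, adjusted p = 0.00162) and Bop1 (-0.44, adjusted p = 0.0181) were lower in NIH-3T3 and those of Nop56 higher (0.31, adjusted p = 0.0279). This comparison shares its control libraries with the SHHN comparisons. Without 1 library the counts were 1 to 5 higher and 1 to 4 lower, with 1 higher without NIH-3T3 control replicate 3 or MLg control replicate 1, 2 higher without NIH-3T3 control replicate 2 or MLg SHHN replicates 2 or 3, 3 higher without MLg SHHN replicate 1 or MLg control replicates 2 or 3, 1 lower without MLg control replicate 2, and 2 lower without NIH-3T3 SHHN replicate 2, any MLg SHHN library or MLg control replicates 1 or 3. With only the 6 control libraries in the fit 1 was higher and 1 lower.

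Myc proteins bind the E-box CACGTG, which reads the same on both strands. RefSeq promoter windows on GRCm38.p6 were found for 35 of the 40 genes, not for Npm1, Fbl, Rrp12, Bop1 and Rrs1. The first window given for each gene was searched. Positions below assume that a window runs from 250 bases before to 50 after a gene's start. This most common offset held for 72.5% of 27025 genes compared. CACGTG occurred in 9 of 35 windows (25.7%), against 10.4% of the windows of tested genes, 7.24% of all windows and 8.62% of those of ribosomal protein genes. For 121 other ribosome biogenesis genes, described below, it occurred in 20 of 103 windows (19.4%). The 9 members were Mybbp1a, Utp18, Utp20, Wdr43, Imp4, Ltv1, Tsr1, Pes1 and Nop2. None of the 9 passed the test in either line (medians -0.03 in NIH-3T3 and 0.25 in MLg, against 0.12 and 0.27 for the 26 genes without the letters). After the length and GC correction Nop2 (0.34, adjusted p = 0.00477) and Utp20 (0.36, adjusted p = 0.0113) rose in MLg, and Imp4 rose there under 3 of 24 alternatives. Whether members with and without the letters differ was not tested. CACGCG, read on both strands, occurred in 28.6% of member windows, 33% of those of the other ribosome biogenesis genes and 18% of those of tested genes. A match describes the letters only. Shown first are 3 windows with the E-box, in capitals: Nop2 at chr6:125131633-125131932, where it starts 60 bases before the gene's start, Pes1 at chr11:3963725-3964024, at base 3 of the gene, and Tsr1 at chr11:74897830-74898129, at base 25. Shown for contrast are Nop56 at chr2:130274162-130274461 and Nhp2 at chr11:51619523-51619822, the members with the smallest p in MLg, whose windows hold no CACGTG. The windows of Nhp2 and Pes1 each hold 1 CACGCG, read on both strands. All 5 are on the plus strand.
Nop2: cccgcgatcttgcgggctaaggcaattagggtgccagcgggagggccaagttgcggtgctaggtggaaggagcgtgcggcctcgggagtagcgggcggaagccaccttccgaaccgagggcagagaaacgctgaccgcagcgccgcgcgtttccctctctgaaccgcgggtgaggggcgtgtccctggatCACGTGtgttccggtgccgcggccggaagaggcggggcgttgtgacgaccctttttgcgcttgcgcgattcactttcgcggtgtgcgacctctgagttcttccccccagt
Pes1: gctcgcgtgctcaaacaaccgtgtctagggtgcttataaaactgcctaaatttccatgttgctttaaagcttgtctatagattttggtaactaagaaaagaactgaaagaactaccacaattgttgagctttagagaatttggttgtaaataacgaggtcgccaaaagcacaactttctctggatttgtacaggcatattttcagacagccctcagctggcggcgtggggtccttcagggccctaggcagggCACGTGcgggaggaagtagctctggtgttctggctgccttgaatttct
Tsr1: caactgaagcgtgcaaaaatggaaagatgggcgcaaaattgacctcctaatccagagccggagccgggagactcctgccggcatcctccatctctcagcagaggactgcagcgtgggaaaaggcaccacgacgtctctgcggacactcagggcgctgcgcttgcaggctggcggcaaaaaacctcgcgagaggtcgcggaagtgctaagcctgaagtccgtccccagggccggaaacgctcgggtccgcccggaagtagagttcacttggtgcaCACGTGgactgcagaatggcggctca
Nop56: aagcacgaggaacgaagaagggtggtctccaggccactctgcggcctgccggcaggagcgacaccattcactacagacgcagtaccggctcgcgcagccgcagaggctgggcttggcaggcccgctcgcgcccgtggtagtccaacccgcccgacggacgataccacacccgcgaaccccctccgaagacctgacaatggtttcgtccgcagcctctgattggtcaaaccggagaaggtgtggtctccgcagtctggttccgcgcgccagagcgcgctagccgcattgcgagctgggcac
Nhp2: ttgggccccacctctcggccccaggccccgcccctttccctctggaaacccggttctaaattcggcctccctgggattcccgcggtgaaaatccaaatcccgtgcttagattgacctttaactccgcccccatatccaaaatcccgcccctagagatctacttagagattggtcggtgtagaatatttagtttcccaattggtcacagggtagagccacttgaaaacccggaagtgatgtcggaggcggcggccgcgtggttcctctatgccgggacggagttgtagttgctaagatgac

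A further 121 ribosome biogenesis genes were measured beside the 40. In NIH-3T3 7 rose and 10 fell (5.79% and 8.26%, against 16.6% and 14.8% of all genes), with a median of -0.07. In MLg 6 rose and none fell (4.96% higher, against 12.8% of all genes), with a median of 0.10. The difference of effects, NIH-3T3 minus MLg, had a median of -0.20, with 84 of 121 negative, against -0.22 for the 40 members. It was positive for 30.6% of the 121, against 47.7% of all genes. Of the 19 genes for the RNA exosome and for snoRNP assembly, 6 rose and 1 fell in NIH-3T3 (31.6% and 5.26%) and 3 rose in MLg (15.8%). In the other subgroups few genes passed in NIH-3T3, and the shares were below those of all genes in both directions (16.6% and 14.8%). There 1 of 40 small subunit factors rose and 3 fell. None of 51 large subunit factors rose and 5 fell, and none of 11 genes of RNA polymerase I machinery rose and 1 fell. Medians there were -0.05 for the small subunit factors (18 positive, 22 negative) and -0.11 for the large subunit factors (15 positive, 36 negative). The RNA polymerase I machinery had a median of -0.10 (4 positive, 7 negative). In MLg 2 of these small subunit factors and 1 large subunit factor rose. Exosc2, an RNA-binding subunit of the exosome, was at 16.7, 18.2 and 20.6 FPKM in NIH-3T3 with SHHN against 12.6, 13.2 and 12.7 FPKM in control, and at 23.0, 19.8 and 22.6 FPKM in MLg with SHHN against 12.8, 12.4 and 13.5 FPKM in control. It rose in both lines, by 0.51 (adjusted p = 0.00292) and 0.73 (adjusted p = 0.000207). Exosc5, a core exosome subunit, rose by 0.69 in NIH-3T3 (adjusted p = 0.000960), and Dis3, the exosome's nuclease, by 0.64 in MLg (adjusted p = 0.00645). Exosc6 rose by 1.62 in NIH-3T3 (adjusted p = 0.000525), but all of its sampled windows occur in another gene, so its level is uncertain. Ddx10, a helicase of small subunit processing, was at 8.11, 7.68 and 8.77 FPKM in NIH-3T3 with SHHN against 44.0, 37.2 and 44.6 FPKM in control, and at 7.09, 8.10 and 8.46 FPKM in MLg with SHHN against 7.18, 8.65 and 9.10 FPKM in control. Only the NIH-3T3 controls were high. Ddx10 fell by 2.29 in NIH-3T3 (adjusted p = 1.82e-08) and differed by -0.07 in MLg (adjusted p = 0.762), and the effects differed by -2.22 (adjusted p = 5.30e-06). Only 1.61% of its sampled windows occur in another gene, but whether the assignment of fragments shaped these levels was not tested. The counts of these 121 genes moved with the libraries used: 5 to 17 higher and 4 to 11 lower in NIH-3T3 and 2 to 13 higher in MLg when 1 library was left out, with 17 in NIH-3T3 and 13 in MLg both without NIH-3T3 control replicate 2 and the 2 in MLg without MLg SHHN replicate 3 or MLg control replicate 2.

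The 79 cytosolic ribosomal protein genes, which encode the protein parts of the ribosome itself, were also measured. In NIH-3T3 52 fell and none rose (65.8% lower, against 14.8% of all genes), with a median of -0.62. In MLg 1 rose and none fell (against 12.8% and 10.0% of all genes), with a median of -0.10. Without SHHN 59 of the 79 were higher in NIH-3T3 than in MLg and 1 was lower, with a median of 0.74. That is 74.7% and 1.27%, against 24.4% and 25.7% of all genes. The fall in NIH-3T3 was measured against these same NIH-3T3 control libraries. In the test of the difference between lines 16 of the 79 were lower in NIH-3T3 (20.3%, against 5.95% of all genes). That count was 9 with quantile normalization or the replicate block, 30 with the length and GC correction or without NIH-3T3 control replicate 1, 5 without NIH-3T3 SHHN replicate 2 or without both NIH-3T3 libraries numbered 2, 8 without NIH-3T3 control replicate 3, 7 without MLg SHHN replicates 2 or 3 and 4 without MLg control replicate 1. Rpl3 was at 1009, 883 and 949 FPKM in NIH-3T3 with SHHN against 1661, 1993 and 1828 FPKM in control, and at 960, 951 and 845 FPKM in MLg with SHHN against 897, 1197 and 1000 FPKM in control. It fell by 0.95 in NIH-3T3 (adjusted p = 0.000161, and by 0.42 with quantile normalization) and differed by -0.16 in MLg (adjusted p = 0.484). Together these genes held 22.6% to 27.0% of FPKM in NIH-3T3 with SHHN and 28.1% to 35.3% in NIH-3T3 control, against 19.8% to 22.5% in MLg with SHHN and 21.6% to 23.8% in MLg control. The count of 52 was 18, with 3 higher, after quantile normalization, 26 with 6 libraries in the fit, 34 without NIH-3T3 SHHN replicate 2 and 24 without both NIH-3T3 libraries numbered 2. Most of these genes share sequence with copies (65 of 79 have over 10 percent of sampled windows in other genes), so single values are uncertain. Rps27, the 1 gene that rose in MLg, was listed at 4.20 to 5.59 FPKM in NIH-3T3 with SHHN against 1619 to 7184 FPKM in control, and at 85.2 to 199 FPKM in MLg with SHHN against 4.84 to 6.87 FPKM in control.

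**Figure D4:**
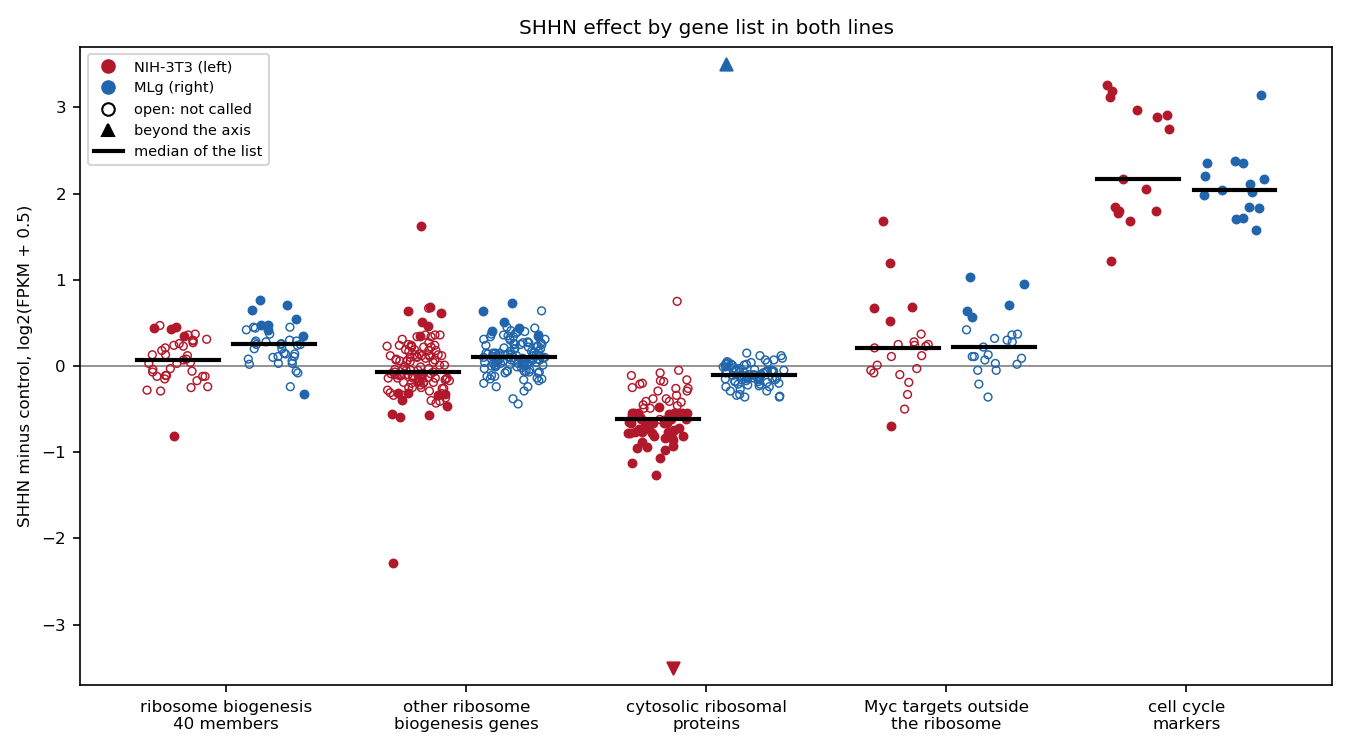
SHHN minus control on log2(FPKM + 0.5) (y axis) for each gene of the lists (x axis), NIH-3T3 left and MLg right in each list. Filled points passed an adjusted p of 0.05, triangles lie beyond the axis and bars are medians. Ribosomal protein genes have medians of -0.62 in NIH-3T3 and -0.10 in MLg, and cell cycle markers 2.17 and 2.04.

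Of 23 known Myc targets outside the ribosome, 5 rose and 1 fell in NIH-3T3 (21.7% higher, against 16.6% of all genes, median 0.21) and 5 rose in MLg (21.7%, against 12.8% of all genes, median 0.22). Shmt1, an enzyme of folate metabolism, rose in both lines, by 1.68 (adjusted p = 6.25e-07) and 1.03 (adjusted p = 7.63e-05), and more in NIH-3T3 (0.65, adjusted p = 0.0422, a call lost under 13 of 23 alternatives, with adjusted p up to 0.114). Ldha, lactate dehydrogenase A, was at 395, 293 and 320 FPKM in NIH-3T3 with SHHN against 202, 224 and 195 FPKM in control, and at 207, 223 and 221 FPKM in MLg with SHHN against 231, 215 and 177 FPKM in control. It rose by 0.69 in NIH-3T3 (adjusted p = 0.00144), and its effects differed by 0.61 (adjusted p = 0.0473), a call lost under 14 of 23 alternatives with adjusted p up to 0.115. Of its sampled windows 16.7% occur in other genes, so its level is uncertain. Tfrc, the transferrin receptor, rose in both lines, by 1.2 (adjusted p = 0.000357) and 0.64 (adjusted p = 0.0310, a call lost in MLg under 6 of 24 alternatives, with adjusted p up to 0.130). Umps, an enzyme of pyrimidine synthesis, was at 16.8, 14.9 and 15.2 FPKM in MLg with SHHN against 7.58, 7.62 and 8.39 FPKM in control. It rose by 0.95 there (adjusted p = 4.17e-05) and less in NIH-3T3 (difference -0.70, adjusted p = 0.0144). All 15 cell cycle markers rose in both lines, with medians of 2.17 in NIH-3T3 and 2.04 in MLg. Mcm5, a subunit of the replicative helicase, rose by 2.75 (adjusted p = 1.28e-08) and 2.36 (adjusted p = 1.42e-07). The part of these changes in the levels of the 40 genes was not tested.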

How the data were processed

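The values are FPKM per gene and library, which the authors computed and deposited. Per the submitters' processing notes, bcl2fastq, TopHat2 2.0.12 and Cufflinks 2.2.1 were used with mm10, and the annotation and any scaling between libraries were not given in the sources used here. Reads per gene could not be recovered from the steps of low values, so depth is unknown and no counting interval is given. A row without values (1) was left out. A gene was tested if 3 or more of the 12 libraries reached 0.5 FPKM. The pseudocount of the log2 values was 0.5. One model with a mean for each of the 4 groups was fitted to all libraries by limma (version 3.58.1, R version 4.3.3), with limma's trend of variance on level. Two-sided p-values had a Benjamini-Hochberg adjustment over all 12379 genes of a comparison and a threshold of 0.05, and every adjusted p is from limma. The code was tested on simulated data.

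The members and lists were chosen with earlier results of these data known. Values in every library are given for the 12 members with the smallest p in NIH-3T3, 6 in MLg, 6 for the difference and 4 between controls. Of the other lists, the 3 genes with the smallest p in NIH-3T3 and the 2 in MLg were eligible to be named. Nob1, Bysl, Mycl in its range and the E-box genes were added because they are called or counted. Same-numbered MLg libraries with and without SHHN correlated, after removal of group means, at 0.13, 0.16 and 0.24 across genes. Those with unlike numbers correlated at -0.18 to 0.01. The numbers were taken as possible pairs in MLg, but the labels state no pairs, so this pairing is uncertain. In NIH-3T3 the same-numbered correlations were at or below 0.03. The main fit had no block, so its MLg calls leave any pairing out, and the block was used only as an alternative. Same-numbered controls of the 2 lines correlated at -0.07, 0.45 and 0.39, and controls with unlike numbers at -0.49 to 0.26. The cause was not tested. Shared sequence was the share of 50-base windows of the longest GENCODE M21 transcript that occur in other genes.

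Results were recomputed with a pseudocount of 0.1 or 1, with the minimum raised to 1 FPKM or dropped, after quantile normalization or scaling by median ratios, with 6 libraries in each fit, with replicate numbers as blocks, with a correction for length and GC content (found for 96.3% of tested genes and 100% of members) alone and with the block, robust variances, the fit without both NIH-3T3 libraries numbered 2, and leaving out each library.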

Additional observations from a re-analysis of the deposited data

Results flagged for a closer look

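The SHHN effect on Mycn was 2.77 higher on the log2 scale in NIH-3T3 than in MLg. This is the pattern from which the question was posed, so it is a description and no added result. The effect also differed between the lines for Mxd3, by 1.26 (limma, adjusted p = 0.0381), with Mxd3 higher with SHHN in all libraries of both lines. The Mxd3 call was lost under 14 of 23 alternatives, with adjusted p up to 0.0911.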

How the results depend on the processing

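Among the 40 members, the Myc genes and the named genes of the other lists, 1 value turned: Rpl10 between controls was 0.01 (adjusted p = 0.970) and -0.55 with quantile normalization (adjusted p = 0.00220). Members counted higher in NIH-3T3 were 4, and 2 without the filter on low values, 2 when 6 libraries were fitted alone, 7 with the length and GC correction, 7 with that and the replicate block, and 1 to 6 without 1 library; the count lower was 1 throughout these. Members higher in MLg were 8, and 15 with the correction, 14 (0 lower) with correction and block, and 5 to 11 (0 to 1 lower) without 1 library, and their median of 0.25 was 0.19 with quantile normalization, 0.22 with median-ratio scaling and 0.22 to 0.26 without 1 library. For the difference of effects, members lower were 1 with quantile normalization, 2 with the replicate block (Gnl3, adjusted p = 0.0307, and Wdr75, adjusted p = 0.0495), 7 with the correction, 3 with correction and block, and 0 to 3 (0 to 1 higher) without 1 library. Between controls, members higher and lower were 1 and 1 with 6 libraries per fit, 7 lower with the block, 8 with the correction, 10 with both, 2 higher without both NIH-3T3 libraries numbered 2, and 1 to 5 and 1 to 4 without 1 library. Over all genes, 1182 were lower in NIH-3T3 with 6 libraries per fit, and the difference gave 1209 lower with the correction and 1148 with correction and block. Without 1 library, all genes lower in MLg were 815 to 1454, and those of the difference 608 to 1101 higher and 485 to 1244 lower. The NIH-3T3 numbers share only a number, and the block there gave 6 members higher. The causes were not tested. Depth is unknown, and 3 libraries per group limit the precision.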
